A study of Mus musculus with 2 samples.

Results

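Mir143 and Mir145 are a neighbouring pair of miRNA genes that are best known from smooth muscle, and their levels are described here in the embryonic mouse face. The members were taken by gene identifier: Mir143, Mir145 (named Mir145a in the annotation) and its distant relative Mir145b. All 3 have a row among the 1973 miRNA genes counted, 2 had counts, and both of those passed the filter on low counts. The samples are 2 biological replicates of the facial prominences of strain B6NCrl embryos at day 14.5, with no treatment and no second group. Each is described as one cranioface from a pup, taken on different days, while the sex entry names males and females pooled, so it is not settled whether a replicate is 1 embryo. Replicate and collection day cannot be told apart. Reads on the strand of a miRNA gene numbered 2719153 for replicate 1 and 6602050 for replicate 2, and levels are given as CPM, counts scaled to 1000000 such reads. A gene with 0 counts, for which 3 counts are allowed, could stand at up to 1.10 CPM in replicate 1 and 0.454 CPM in replicate 2. Such limits and the intervals below cover counting error only.

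Primary transcripts that hold both hairpins are made in smooth muscle under serum response factor and myocardin, and the mature miRNAs favour the contractile state of the cells, in part by lowering Klf4, Klf5 and Elk1. Facial blood vessels take their pericytes and smooth muscle cells from the neural crest, and fibroblasts and other mesenchymal cells are also known to make both miRNAs. The tissue was sequenced whole, so fewer cells of a type and less RNA per cell cannot be told apart, and the cells that made the counted reads were not identified.

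A read in these libraries is a short RNA of about the length of a mature miRNA, and the deposited counts add up all reads of a hairpin, whichever arm they come from. Levels of Mir143 are set beside miRNAs of other cell types below, and mature forms from 3 of these are shown as background. They are the 3p forms of Mir126a (endothelium, at chr2:26591402-26591423), Mir206 (skeletal muscle, at chr1:20679055-20679076) and Mir214 (mesenchyme, at chr1:162223438-162223459), all on the plus strand of GRCm38.p6 and taken from RefSeq, with the seed, bases 2 to 8, in capitals.
miR-126a-3p: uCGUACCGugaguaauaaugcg
miR-206-3p: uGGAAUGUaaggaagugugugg
miR-214-3p: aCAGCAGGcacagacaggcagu

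The 3 seeds have different letters, so these comparison genes belong to different seed families. Counting whole hairpins means that a change in arm use within any of these genes would not appear in the values.

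On assembly mm10, Mir143 (ENSMUSG00000065445) lies on chromosome 18 at 61649196 to 61649258 and Mir145a (ENSMUSG00000065592) at 61647825 to 61647894, both on the minus strand. Mir145a is downstream of Mir143, with 1301 bases between the hairpins, and no other annotated miRNA gene lies within 10 kb. In GENCODE M21 neither hairpin lies in an exon or intron of another gene: Carmn, the long noncoding gene of the locus, ends 366 bases upstream of Mir143, and Bvht, on the plus strand, ends 352 bases from Mir145a. In RefSeq, on the same assembly, Carmn runs from 61645878 to 61665538 and spans both hairpins. Mir145b (ENSMUSG00000098366) lies on the same chromosome and strand at 69022199 to 69022273, which is 7374304 bases from Mir145a. It lies in no host gene of GENCODE M21, and RefSeq was not searched there.

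**Figure D1:**
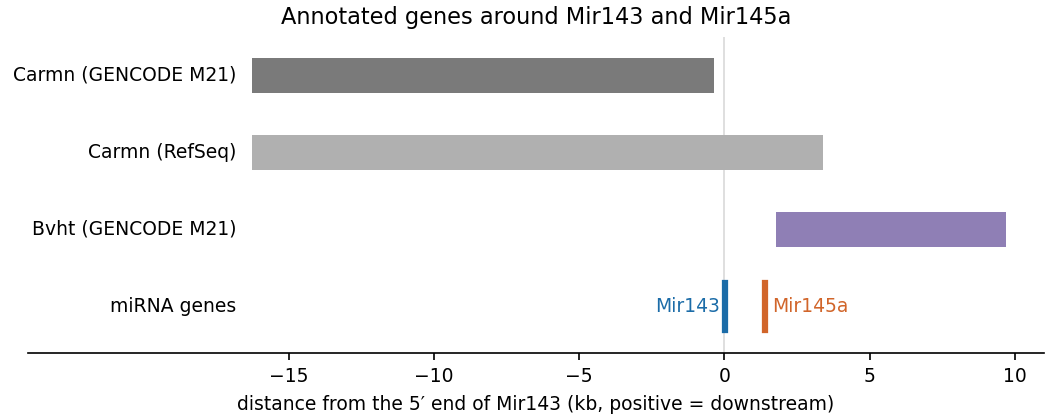
Annotated genes around Mir143 and Mir145a, drawn to scale as distance in kb from the 5′ end of Mir143, with positive values downstream on the minus strand. The GENCODE M21 model of Carmn ends upstream of Mir143, whereas the RefSeq model spans both miRNA genes.

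Mir143 was among the miRNA genes with the most counted reads in the embryonic face. It had 48244 counts in replicate 1 and 104795 in replicate 2, or 17742 CPM (95% Wilson interval 17586 to 17900) and 15873 CPM (15778 to 15969). The mean was 16808 ± 1322 CPM (SD, n = 2), an SD of 7.86% of the mean. Mir143 ranked 15 in replicate 1 and 17 in replicate 2, and held 1.77% and 1.59% of all gene-strand miRNA counts. Reads placed at several sites, 29.8% and 28.5% of the reads, are not in these counts. Genes that share sequence may therefore stand too low, and the ranks and shares hold for counted reads only.

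Its neighbour Mir145a stood far lower. It had 1053 counts in replicate 1 and 2671 in replicate 2, or 387 CPM (365 to 411) and 405 CPM (390 to 420), with a mean of 396 ± 12.2 CPM (SD, n = 2). The Wilson intervals of the replicates overlap for Mir145a and do not overlap for Mir143. Mir145a ranked 139 and 135.

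Mir145b had 0 counts in both libraries. Against the 3 counts that 0 allows in each library, Mir145a was at least 351-fold higher in replicate 1 and at least 890-fold higher in replicate 2. Mir145a and Mir145b share a stretch of 17 bases, the longest that either shares with any miRNA gene, and the longest stretch of Mir143 shared with another miRNA gene is 11 bases. No member has a 20-base stretch in common with any other miRNA gene, a length at which whole reads begin to fit more than 1 gene. No member had a read on its opposite strand in either library.

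The 2 neighbouring genes therefore differed strongly in counted level. Within replicate 1 there were 45.8 Mir143 reads for each Mir145a read (95% counting interval 43.1 to 48.7), and within replicate 2 there were 39.2 (37.8 to 40.8). Mir145a made up 2.14% of the reads of the pair in replicate 1 and 2.49% in replicate 2. Both are hairpins of similar length, 63 bases for Mir143 and 70 for Mir145a, and per base of hairpin the ratios were 50.9 and 43.6. Adapter ligation favours some ends over others, and its part in the fold between these miRNAs was not tested.

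The ratio of the pair shifted little between the replicates compared with its size. Its log2 value was 5.52 in replicate 1 and 5.29 in replicate 2, a change of -0.22 with a counting SE of 0.053 (two-sided Fisher's exact test of the counts, p = 2.29e-05). This ratio does not depend on how the libraries are scaled. The test compares 2 libraries and holds counting error only. With 2 replicates of 1 group no exact test over samples can go below p = 0.5.

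Unequal counts of neighbouring miRNA genes were common in this tissue. Among 112 pairs of adjacent miRNA genes within 10 kb on 1 strand, both with a mean of at least 10 counts, the median fold between the higher and the lower was 7.82, and 48 pairs differed at least 10-fold. The Mir143 and Mir145a pair, at 42.5-fold, was exceeded by 31 of the 112 pairs. Of the 62 pairs with no such shared stretch of 20 bases, whose median was 5.97-fold, 10 exceeded it. The corresponding pairs of skeletal muscle and mesenchyme, picked after their values were seen, were of like size: Mir206 stood 47.2-fold above Mir133b and Mir214 47.6-fold above Mir199a-2. Unlike the smooth muscle pair, the lower gene of each of those pairs has a 20-base stretch that occurs in a further miRNA gene. The difference in log2 ratio between the replicates was 0.22 for Mir143 and Mir145a against a median of 0.27 over all pairs, and 46 pairs had a smaller one.

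**Figure D2:**
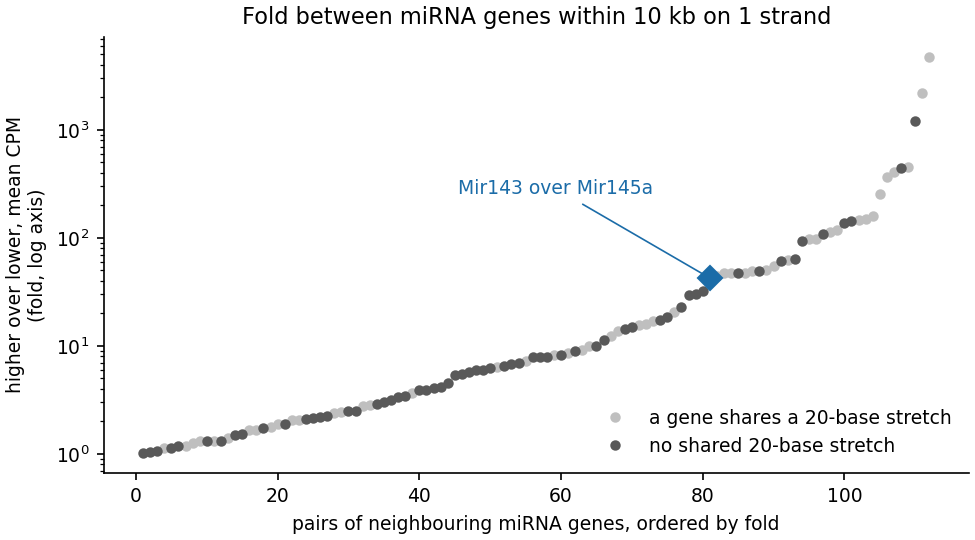
Fold between the higher and the lower gene, in mean CPM on a log axis, for 112 pairs of adjacent miRNA genes within 10 kb on 1 strand, ordered by fold, with pairs that hold a gene sharing a 20-base stretch in light grey. The diamond marks Mir143 over Mir145a, at 42.5-fold, in the upper part of the distribution and below 31 pairs.

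Between the replicates the log2 ratios of the pair split slightly, that of Mir143 lying near the median of all tested genes and that of Mir145a a little above it. With TMM scaling, which centres the bulk of the genes, the log2 ratio of replicate 2 over replicate 1 was -0.035 for Mir143 (counting SE 0.0079) and 0.19 for Mir145a (counting SE 0.052). Both passed the exact binomial test with Benjamini-Hochberg adjustment over the 372 tested genes, at adjusted p = 2.87e-05 for Mir143 and 0.000766 for Mir145a. So did 194 of the 372, or 52.2%, of which 102 were higher and 92 lower in replicate 2, and a call does not set either member apart from that background. As folds of replicate 2 over replicate 1 the differences were 0.976 for Mir143 and 1.14 for Mir145a. Over the 372 tested genes, edgeR gave a biological coefficient of variation of 20.9% between the libraries. The size of the Mir143 difference was exceeded by 93.3% of the tested genes and that of Mir145a by 61.3%, but with total counts the order turned, to 68.5% for Mir143 and 88.4% for Mir145a.

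The direction for Mir143 depended on the scaling. With total counts it was lower in replicate 2 (log2 ratio -0.16, exact binomial test, adjusted p = 7.79e-89). With DESeq2 size factors it was higher (0.022, adjusted p = 0.0104 by the same test), and with TMM factors taken over all rows it was 0.012 and did not pass (adjusted p = 0.198). Mir145a was at 0.063 with total counts, where it did not pass (adjusted p = 0.335), at 0.25 with DESeq2 size factors and at 0.24 with TMM over all rows. With total counts 53% of the genes were called, 64 higher and 133 lower, and the median log2 ratio of all tested genes was -0.13, against -0.0022 with TMM. A scaling moves every gene by the same amount, so the distance of a gene from that median is fixed: with TMM the log2 ratio of Mir143 lay at -0.033 and that of Mir145a at 0.19 relative to it.

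**Figure D3:**
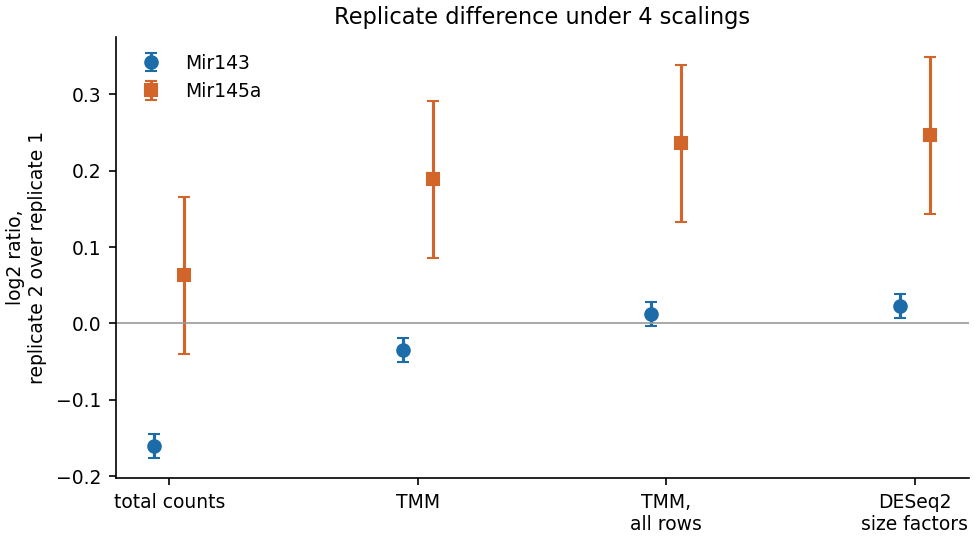
Log2 ratio of replicate 2 over replicate 1 for Mir143 (circles) and Mir145a (squares) under 4 scalings of the libraries, with bars of the 95% counting interval. All points move together, Mir143 crosses 0 between TMM at -0.035 and TMM over all rows at 0.012, and the distance between the genes stays the same.

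**Figure D4:**
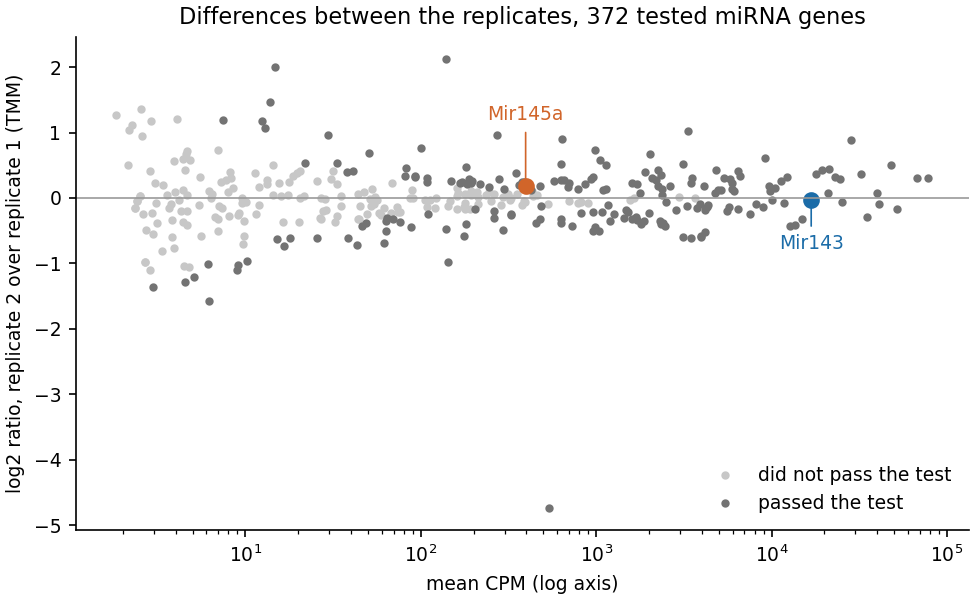
Log2 ratio of replicate 2 over replicate 1 with TMM scaling against mean CPM on a log axis, for the 372 tested miRNA genes, with genes past the exact binomial test in dark grey. Mir143 at 16808 CPM and Mir145a at 396 CPM both lie close to 0, inside the cloud of genes.

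Against the markers of other facial cell types, Mir143 was below endothelial Mir126a and below the summed epithelial and the summed cartilage miRNAs, and far above the sums for blood and neural cells. Endothelial Mir126a, the 1 member of its list with a row, stood at 41674 CPM in replicate 1 and 54165 CPM in replicate 2, which was 2.35-fold and 3.41-fold the level of Mir143. A 20-base stretch of Mir126a, read on either strand, also occurs in another annotated miRNA gene. Whether that gene lies at a different site was not looked up. The 7 epithelial miRNAs, of the miR-200 family with Mir203 and Mir205, summed to 2.96-fold and 4.25-fold the level of Mir143. Of single epithelial genes only Mir203, at 21094 and 35599 CPM, stood above Mir143, and the other 6 were below it in both replicates, so the mean log2 ratio of Mir143 went from -1.83 to the sum to -0.71 to Mir203 alone. The cartilage pair Mir140 and Mir455 summed to 2.45-fold and 2.63-fold, nearly all of it Mir140 (94.1%), whereas Mir455 alone, at 2647 and 2335 CPM, was below Mir143.

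Mir143 was close to the counted miRNAs of striated muscle and mesenchyme. It stood 1.46-fold and 1.16-fold above the sum of 9 striated muscle genes (12185 and 13734 CPM), 94.7% of which was Mir206. It stood 1.01-fold and 1.31-fold above the sum of the 4 mesenchymal genes of the miR-199 and miR-214 group (17643 and 12119 CPM), whose highest member was Mir214. None of the genes with a row in these 2 lists was at 0 in both libraries. Yet 5 of the striated and 3 of the mesenchymal genes share a 20-base stretch. Reads placed at several sites are not in these counts, so both sums may be too low. The ratio to Mir214 alone was in the same direction, since Mir214 had 16135 and 11066 CPM.

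The remaining lists were much lower. Mir143 stood 16.2-fold and 11.3-fold above the 3 erythroid genes, and 28.0-fold and 19.7-fold above the 3 leukocyte genes with a row. It stood 13.2-fold and 14.5-fold above the 9 neural genes with a row, of which 3 were at 0. However, 8 of the neural genes, including those 3, and 2 of the erythroid genes share a 20-base stretch, read on either strand. For the erythroid genes, whether the stretch recurs at a different site was not looked up. Reads placed at several sites are not in these counts, so these sums may be too low and a count of 0 does not show absence. The erythroid list summed to 1093 and 1406 CPM, led by Mir451a, a miRNA of red cell maturation. Leukocyte genes summed to 633 and 807 CPM, led by myeloid Mir223. The names Mir142 and Mir142a of the leukocyte list had no row, so this sum leaves them out and may be too low. Neural genes summed to 1343 and 1098 CPM, led by Mir137.

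**Figure D5:**
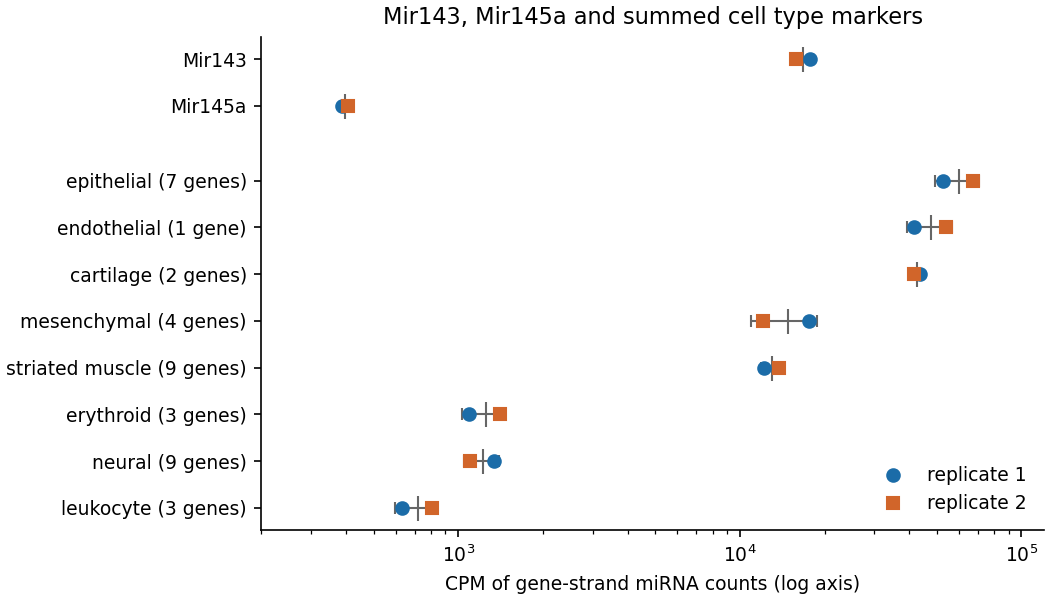
CPM on a log axis for Mir143, Mir145a and the summed markers of 8 other cell types, with replicate 1 as circles, replicate 2 as squares, and the mean with its SD in grey (n = 2). Mir143 lies near the mesenchymal and striated muscle sums, and Mir145a below every sum shown.

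The ratio of Mir143 to the other lists moved between the replicates, by more than the counting error in all 8 lists. The log2 ratio to Mir126a fell by 0.54 from replicate 1 to replicate 2 (-1.23 and -1.77), that to the epithelial list fell by 0.52, and that to the erythroid and leukocyte lists fell by 0.52 and 0.51. The ratio to striated muscle fell by 0.33 and that to cartilage by 0.10. It was higher in replicate 2 for mesenchyme, by 0.38, and for neural genes, by 0.13. All 8 passed two-sided Fisher's exact tests with Benjamini-Hochberg adjustment over the lists, the largest adjusted p being 1.92e-05 for the neural list. These tests again hold counting error only. Against the log2 ratio of -0.035 for Mir143 itself, the highest marker of each list had a TMM log2 ratio of 0.50 (Mir126a), 0.88 (Mir203), 0.51 (Mir451a), 0.51 (Mir223), 0.32 (Mir206), -0.42 (Mir214), -0.38 (Mir137) and 0.074 (Mir140). Of these 8, Mir140 alone turned with the scaling, to -0.052 with total counts, where Mir143 was at -0.16, and the other 7 kept their direction under all 4 scalings. The share of each cell type in the replicates was not measured, and its part in these shifts was not tested.

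Other miRNAs known to act on the smooth muscle phenotype were read from a list. Of its 5 contractile genes with a row, only Mir143 and Mir145a had enough counts to be tested, and their values are given above. Mir1a-1 had 3 and 6 counts, Mir133a-1 had 0 and 8, and Mir133a-2 had 0 and 2. These 3 share 20-base stretches, and reads placed at several sites are not counted.

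All 9 genes with a row that the list places with the proliferative or synthetic state were tested, of which 3 were higher and 2 lower in replicate 2. That is near the 52.2% called over all tested genes and is no result about the list, which had a median log2 ratio of -0.028 against -0.0022 over all tested genes. Mir24-2 was higher (0.39), as were Mir31 (0.18) and Mir221 (0.16), a miRNA of dividing smooth muscle cells. Mir24-2 is among 4 of the 9 genes that share a 20-base stretch, for which reads placed at several sites are not counted. Mir21a (-0.16), a growth-linked miRNA, and Mir130a (-0.057) were lower. With total counts 1 was higher and 2 lower, Mir31 (0.053) and Mir221 (0.037) no longer passing, and with DESeq2 size factors Mir130a turned to 0.00021 (exact binomial test, adjusted p = 1) and with TMM over all rows it was at -0.0099 (adjusted p = 0.207). Mir130a stood at 25247 ± 2260 CPM and Mir21a at 6464 ± 903 CPM (SD, n = 2), above and below the level of Mir143. Mir221 and Mir222, at 244 ± 4.42 and 113 ± 8.49 CPM, stood below Mir145a.

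In the order of mean levels, Mir143 came after Mir26b (21046 CPM), Mir23a (19301 CPM) and Mir99b (18003 CPM), and before Mir30e (14976 CPM), Mir214 (13601 CPM) and Mir17 (12715 CPM). Mir23a and Mir99b were below Mir143 in replicate 1 and above it in replicate 2, so their order was not settled. Mir30e and Mir214 were below Mir143 within each replicate, although their ranges over the replicates overlapped its range. Mir26b lay wholly above and Mir17 wholly below the range of Mir143. Mir145a came between Mir485 (427 CPM) and Mir27a (393 CPM), and the order within a library changed between the replicates for the 3 genes below it, Mir27a, Mir496a (390 CPM) and Mir450b (386 CPM). The 3 genes above it, Mir669l, Mir669o and Mir485, were higher in both replicates.

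Genes with a like difference between the replicates were taken from the 201 tested genes of at least 100 CPM on average, over 2 libraries, by the distance of their log2 ratios, which no scaling changes by more than the small prior count. Nearest to Mir143 were Mir379 (distance 0.0002), Mir92-1, Mir222, Mir450b and Mir495 (0.0089). Nearest to Mir145a were Mir139 (0.0012), Mir467d, Mirlet7d, Mir135b and Mir31 (0.0096). Over 2 libraries this likeness is a single number per gene, so many genes lie near any given one.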

How the data were processed

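Small RNA libraries of 2 replicates of 1 group were used. The authors deposited whole-number read counts for each miRNA gene, 1 library per file. The assembly is mm10 and the gene models are GENCODE M4, both per the labels with the deposited metadata. Aligner, counter and trimming: not given in the sources used here. The files have 3 count columns without names, in the layout of STAR gene counts (both strands, gene strand, opposite strand), and 4 summary rows that held 51.6% and 50.7% of the reads (29.8% and 28.5% placed at several sites). Neither library sizes nor tests include these rows.

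Gene-strand counts were scaled to CPM over the gene rows. Names and positions came from GENCODE M21 on the same assembly, by identifier; the hairpin versions of Mir143 and Mir145a differ between the releases. The libraries were compared gene by gene with an exact two-sided binomial test given the TMM effective sizes of edgeR 4.0.16 (factors from rows with a mean of at least 10 counts), Benjamini-Hochberg adjusted over the 372 genes with that mean, at 0.05, with a prior of 0.5 counts on log2 ratios. The test was run on simulated counts with counting error only, which does not check it against the spread between replicates. P-values measure the spread of counting only. Fisher's exact test (scipy 1.17.1) was used for ratios. Shared stretches were searched on both strands of the GENCODE M21 hairpins.

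Alternatives were total counts, DESeq2 1.42.0 size factors, the unstranded column, other count filters and priors, thinning to equal depth, and each replicate left out; TMM over all rows and the pair sets without shared stretches or within 2 kb were chosen after the data were seen. Named genes were the members, their 3 level neighbours on each side, the 5 nearest log2 ratios, and the top of each marker list; the other markers and smooth muscle genes come from fixed lists. The members and lists were chosen with earlier results of these data known.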

Additional observations from a re-analysis of the deposited data

How the results depend on the processing

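Across 96 alternative values of 26 results, 82 were counted as kept. A value was kept if it held its direction and side of the threshold, or moved by less than the spread between replicates. For the count of called genes and the median fold of neighbouring genes, it had to stay within a set factor of the main value. Part of this tally was fixed in advance. For example, leaving out 1 of 2 replicates cannot move a mean level or mean log2 ratio beyond that spread. With DESeq2 size factors the log2 ratio of Mir143 turned to 0.022, and with TMM over all rows to 0.012. With total counts Mir145a kept its direction at 0.063 but no longer passed. These follow from the scaling, which moves every gene by the same amount. Scaled to all reads of the library, Mir143 stood at 8210 CPM and Mir145a at 194 CPM, and without the highest gene in the total at 18225 and 429 CPM. In the unstranded column Mir145a was at 379 CPM and rank 145. Leaving out a replicate gave ranks of 15 to 17 for Mir143 and 135 to 139 for Mir145a. With the highest marker only, the mean log2 ratio of Mir143 was -1.26 to cartilage, -0.71 to epithelial and 4.75 to neural markers. The count of called genes, 194, was 174 to 204 over its alternatives. The change of the Mir143 to Mir145a ratio was the same in the unstranded column and with Mir145b added. Those 2 settings could not alter it, since neither gene had opposite-strand reads and Mir145b had 0 counts. The lower counts of Mir145a give its log2 ratio a counting SE of 0.052, against 0.0079 for Mir143 in the same libraries.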

Other observations

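Of the 50 miRNA genes of chromosome 18 with a row, 6 had a mean of at least 10 counts. Mir143 alone held 96.7% of the counts of that chromosome's miRNA genes in replicate 1 and 96.5% in replicate 2. Reads placed at several sites are not in these counts, and their part in this share was not tested.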
